A study of Caenorhabditis elegans with 4 samples.

Results

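The C-type lectin genes of Caenorhabditis elegans were taken as every locus whose deposited name is clec followed by a number, which gave 255 of the 19852 loci in each table. They were described across 4 RNA libraries of whole adult animals of the wild-type strain N2, 1 library per group, kept at 20 °C on RNAi media per the labels, although their exposure protocol says room temperature. Control animals ate bacteria with an empty RNAi vector, and the others ate bacteria for RNAi of elt-2. Exposure began at day 1 of adulthood and lasted 36 h, either in normoxia or in hypoxia at 0.5% oxygen in nitrogen. Because each group is 1 library, values are given without error, and a difference between 2 libraries has no replicate check.

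C-type lectin domains fold around a binding surface that, in many vertebrate members, holds sugars with the help of calcium. The family is large in C. elegans. Many of these proteins are predicted to be secreted, and many of the genes are switched on in the intestine when the animal meets pathogenic bacteria, which makes them common readouts of intestinal immunity. ELT-2 is a GATA transcription factor that maintains gene expression in the differentiated intestine. Domain content was not examined here, so the family is defined by name.

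The targeted gene did not follow its label. elt-2 (chromosome X, 10481180 to 10483367, ce10) was listed at 4.81 RPKM (a read density corrected for transcript length and for the number of mapped reads) in control normoxia and at 15.2 in control hypoxia. Under the elt-2 RNAi label it was at 14.3 RPKM in normoxia and at 23.8 RPKM in hypoxia. Those 2 libraries are called elt-2-labelled below, and every direction given for RNAi rests on the label. The RNA came from whole animals, in which fewer cells of a type and less RNA per cell cannot be told apart.

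Most of the family was barely present. Of the 255 genes, 63 were listed at 0 in all 4 libraries, and 62 had a mean over the libraries of at least 1 RPKM, the level at which ratios were taken. Beside this, 10655 of all 19512 single-gene loci without a failed status reached that mean. The share of all loci at 0 is not given here. The genes just inside that level were clec-74, clec-145 and clec-71, with means of 1.03, 1.04 and 1.05 RPKM, and those just outside were clec-55, clec-36 and clec-27, with 0.882, 0.881 and 0.869. Of the 62 compared genes, 42 reached 1 RPKM in every library and 3 in 1 library only. A gene that passed through 1 library alone, or through the libraries of 1 RNAi food alone, had to differ between libraries. The counts below therefore describe the compared genes and not the family. None of the 62 is now annotated as a pseudogene, against 18 of the 255.

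Family members lay on all 6 chromosomes, with 90 on chromosome V, 57 on IV, 51 on II, 36 on I, 18 on III and 3 on X. All 3 genes of chromosome X had a mean of 1 RPKM or more, against 20 of 90 on V and 6 of 36 on I. Within 10 kb of another member lay 169 genes, in 50 groups of neighbours, of which the largest held 13 genes.

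The summed RPKM of all members was 7801 in control normoxia, 8134 in control hypoxia, 5902 in elt-2-labelled normoxia and 5741 in elt-2-labelled hypoxia. These sums were 0.805%, 0.722%, 0.614% and 0.529% of the RPKM of all loci. The 5 genes with the highest means, clec-87, clec-88, clec-63, clec-91 and clec-65, held between 55.5% and 75.2% of the sum in each library. clec-87 (chromosome I, 10184468 to 10185458) was listed at 2318, 1723, 2411 and 2054.5 RPKM in control normoxia, control hypoxia, elt-2-labelled normoxia and elt-2-labelled hypoxia, and values of 4 libraries below follow that order. Its values lay within 2-fold of each other, and it was the most abundant member in each.

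**Figure D1:**
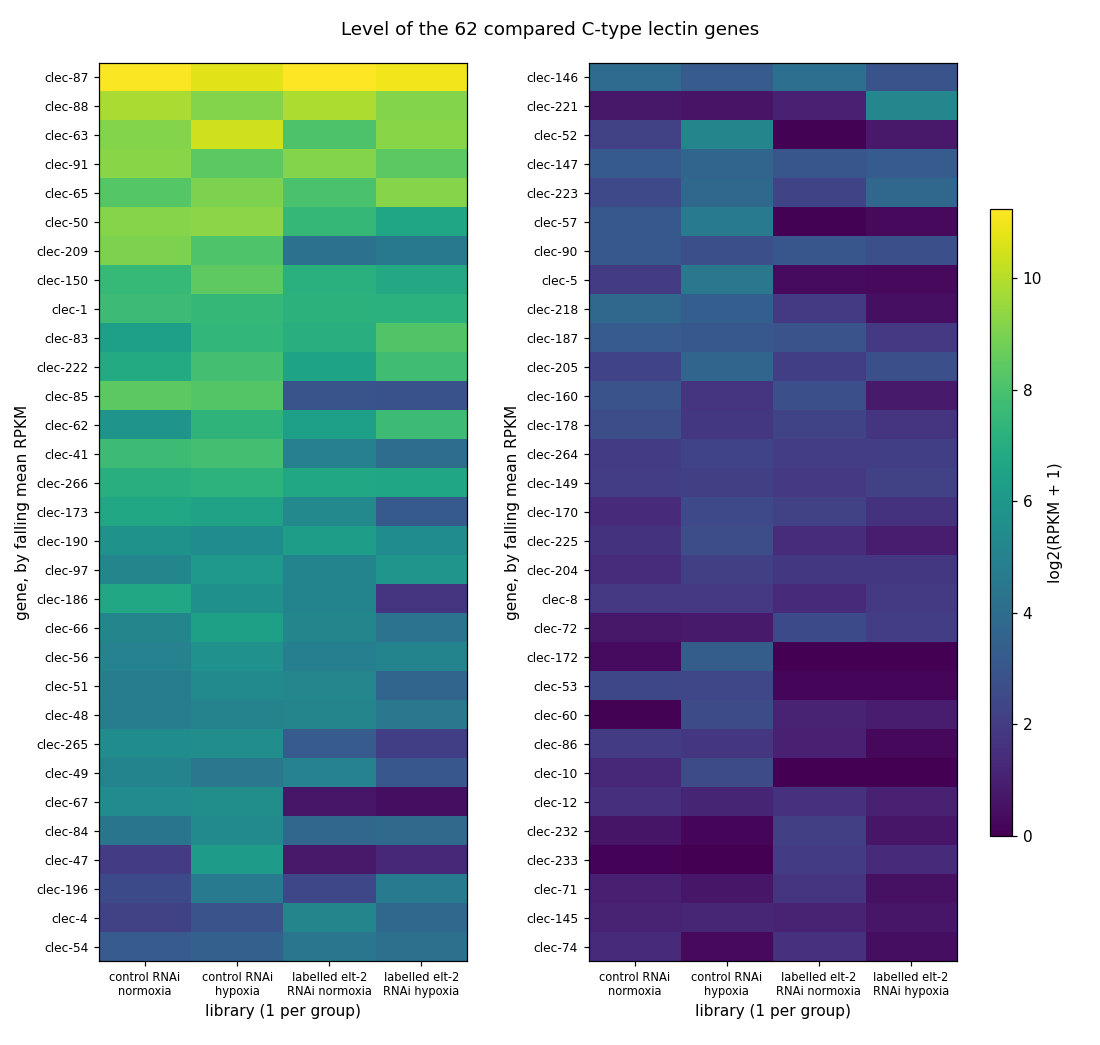
Level of the 62 compared C-type lectin genes in each of the 4 libraries, as log2(RPKM + 1) by colour, ordered by falling mean in 2 columns. The genes clec-85, clec-209 and clec-67 are brighter in both control libraries than in both elt-2-labelled ones, whereas clec-47, clec-52 and clec-5 stand out in control hypoxia alone.

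The hypoxia library of control animals held the highest value for 29 of the 62 genes, against 25.6% of all 10655 compared genes. Elt-2-labelled hypoxia held the lowest value for 28 of the 62, against 18.3% of all compared genes. Counts past 2-fold were taken on log2(RPKM + 1), a scale that understates the change of low genes.

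Hypoxia values in control animals were at least 2-fold above normoxia for 17 of the 62 genes (27.4%), beside 9.48% of all compared genes, and 3 (4.84%) were at least 2-fold lower, beside 3.55%. For elt-2-labelled animals the corresponding counts were 8 higher (12.9%), beside 9.87%, and 12 lower (19.4%), beside 4.25%. Set against control in normoxia, the elt-2-labelled library had 16 genes past 2-fold on the low side (25.8%), beside 3.66%, and 6 on the high side (9.68%), beside 1.23%. Set against control in hypoxia, it had 26 on the low side (41.9%), beside 5.08%, and 3 on the high side (4.84%), beside 1.94%. The share near the background was that of genes lower in hypoxia in control animals, and to a lesser degree that of genes higher in hypoxia in elt-2-labelled animals. The median log2 ratio of the 62 genes was 0.15, -0.27, -0.16 and -0.55 in these 4 comparisons, and that of all compared genes was 0.01, -0.01, 0.04 and 0.05.

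**Figure D2:**
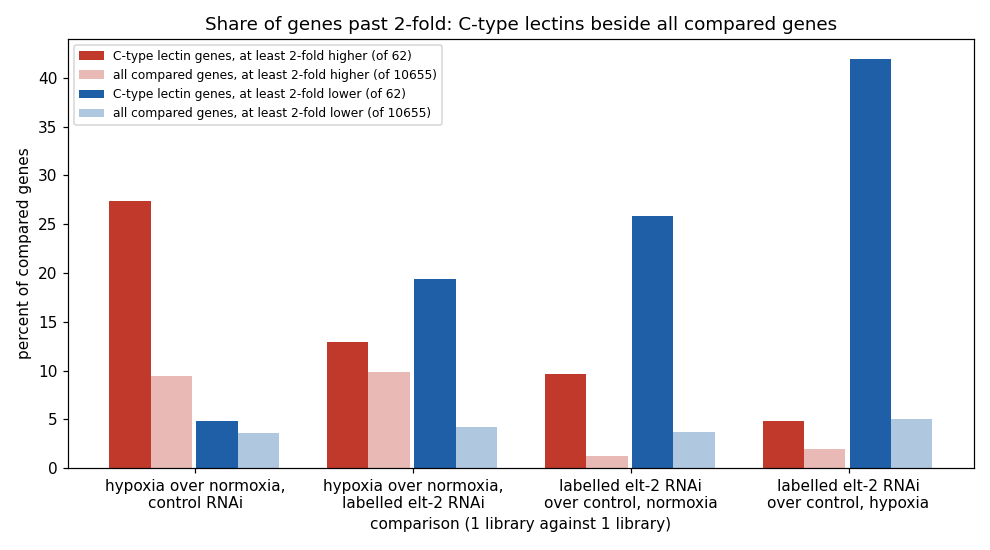
Percent of the 62 compared C-type lectin genes (dark bars) and of all 10655 compared genes (pale bars) that were at least 2-fold higher (red) or lower (blue) in each comparison of 1 library with another. The tallest bar is the 41.9% of lectin genes lower in the elt-2-labelled library in hypoxia, beside 5.08% of all genes.

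All 16 genes at least 2-fold lower with the elt-2 label in normoxia were also at least 2-fold lower in hypoxia, and the 2 oxygen levels share no library. Such overlap was common, as 286 of the 390 compared genes lower in normoxia were also lower in hypoxia. The 16 genes made up 25.8% of the compared lectin genes, where 2.68% of all compared genes were lower at both oxygen levels. Of these, clec-67, clec-52, clec-57, clec-5, clec-53 and clec-10 were under 1 RPKM in both elt-2-labelled libraries. They were compared only through the control libraries, so their direction was partly set by the filter. Among the 16, clec-85 (chromosome IV, 2854344 to 2855454) had the lowest ratios with the pseudocount of 1 RPKM, while with 0.1 RPKM those of clec-67 were lower. clec-85 is a gene used as a readout of the PMK-1 p38 immune pathway. It was listed at 337 and 297 RPKM in the control libraries and at 6.52 and 6.22 RPKM in the elt-2-labelled libraries. Its values hardly depended on oxygen on either food, and its log2 ratio for the elt-2 label was -5.49 in normoxia and -5.37 in hypoxia.

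clec-67 (chromosome IV, 3922159 to 3925039), another readout of PMK-1 signalling, had the same pattern at a lower level. It was at 41.9, 45.3, 0.619 and 0.354 RPKM, so the control libraries held nearly all of its signal. With a pseudocount of 0.1 RPKM its log2 ratios were -5.87 in normoxia and -6.64 in hypoxia, against -5.67 and -5.55 for clec-85. clec-209 (chromosome V, 2351675 to 2352931), on the plus strand, was at 526, 282, 17.9 and 22.1 RPKM. In contrast to clec-67, it was lower in hypoxia among controls, with a log2 ratio of -0.90, and slightly higher in hypoxia among elt-2-labelled animals, with 0.29. The locus F56A4.2, on the same chromosome and strand, spans 1257 bp as clec-209 does and was at 616, 329, 18 and 23.1 RPKM. Such near-equal values in every library could come from reads divided between similar copies, which was not tested, as no sequences were compared. The level of clec-209 is therefore uncertain.

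Other abundant genes of these 16 kept part of their level. clec-50 (chromosome V, 19752371 to 19755333) had 579.7, 629, 178 and 98.5 RPKM. clec-41 (chromosome V, 13134937 to 13138071) had 208.6, 235, 28.4 and 15.2 RPKM. clec-63 (chromosome II, 12895567 to 12897393) was at 561, 1369, 271 and 595 RPKM. Each was lower under the elt-2 label at each oxygen level, but clec-63 in elt-2-labelled hypoxia was slightly above its control normoxia value.

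Among the genes of middle level, clec-173 was at 106, 88.8, 38 and 8.11 RPKM. clec-186, at 102, 49.2, 32.1 and 2.34 RPKM, was lower both with hypoxia and with the elt-2 label. clec-265, on chromosome X, was at 42.9, 43.8, 8.39 and 3.2 RPKM. Each of these genes was lowest in elt-2-labelled hypoxia, and so was clec-218 at 13, 9.15, 2.72 and 0.356 RPKM. The low gene clec-53 was listed at 4.42, 4.24, 0.156 and 0.126 RPKM. Its control values did not depend on oxygen, and its log2 ratio for the elt-2 label was -2.23 in normoxia and -2.22 in hypoxia.

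The other 5 of the 16 genes were high in control hypoxia alone. clec-47 (chromosome V, 15175731 to 15176309) had 2.82, 69.8, 0.69 and 1.39 RPKM. clec-52 (chromosome IV, 8167150 to 8168760) was at 3.65, 33.7, 0.0536 and 0.701 RPKM. clec-57 was at 7.6, 24.4, 0.0601 and 0.212 RPKM. In each case the control hypoxia library was several times above the control normoxia library, and both elt-2-labelled libraries were below either control. clec-5, on chromosome III, was at 3.01, 21.7, 0.263 and 0.236 RPKM, and clec-10 was listed at 1.38, 4.92 and 0.0287 RPKM and at 0 in elt-2-labelled hypoxia.

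**Figure D3:**
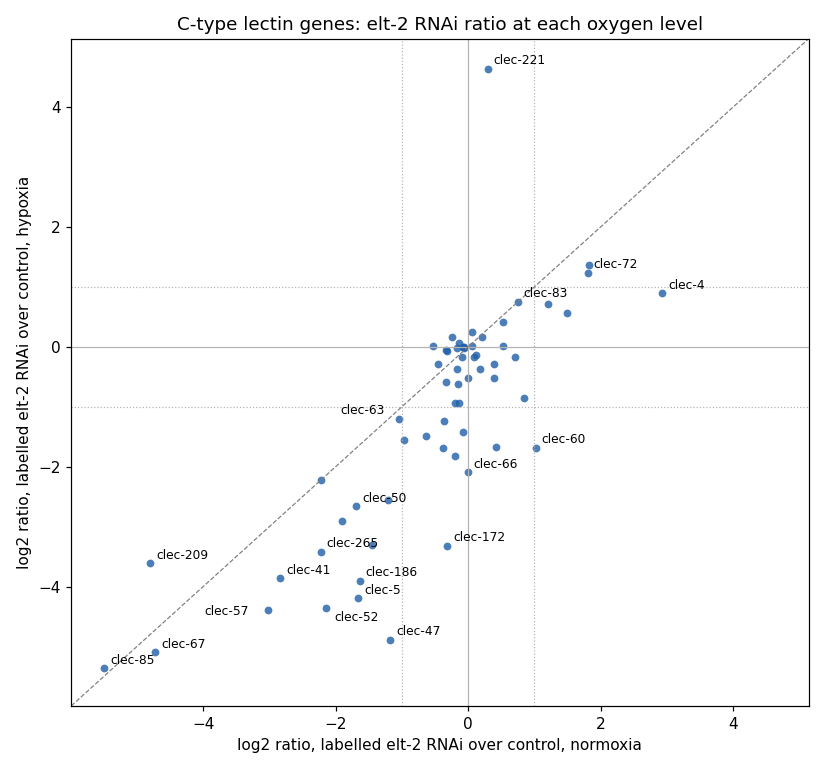
Log2 ratio of elt-2-labelled over control libraries in normoxia (x axis) and in hypoxia (y axis), 1 point per compared C-type lectin gene, with dotted lines at 2-fold and a dashed line of equal ratios. The 16 genes in the lower left corner were at least 2-fold lower at both oxygen levels, and clec-221 stands alone at the top with a ratio of 4.64 in hypoxia.

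Past 2-fold on the low side of the elt-2 label in hypoxia and not in normoxia were 10 more genes (16.1%), beside 2.39% of all compared genes. Of these, clec-150 (chromosome III, 1002696 to 1006235) was the most abundant, at 184, 349, 141 and 107 RPKM. clec-66 (chromosome II, 12904350 to 12906535) was at 35, 81.5, 34.9 and 18.3 RPKM. The normoxia values of clec-66 were nearly equal on the 2 foods, with a log2 ratio of -0.01, while in hypoxia the ratio was -2.09. clec-51 was at 26.5, 40.1, 35.6 and 11.8 RPKM, and clec-84 at 19.6, 40.1, 12.3 and 13.6. clec-49, whose protein is known to take part in the response to Serratia marcescens, was at 32.3, 21, 30.6 and 7.21 RPKM. The last named gene of this set, clec-187, was at 8.42, 7.66, 6.28 and 2.69 RPKM. In all of these but clec-84, elt-2-labelled hypoxia was the lowest library.

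The remaining genes of the set were low. clec-172 was listed at 0.246 RPKM in control normoxia, 9.02 in control hypoxia and 0 in both elt-2-labelled libraries. clec-60, an intestinal gene strongly induced by Staphylococcus aureus, was at 0.0335, 4.84, 1.09 and 0.816 RPKM. It was therefore the one gene on opposite sides of 2-fold, higher with the elt-2 label in normoxia (log2 ratio 1.02) and lower in hypoxia (-1.69). That normoxia ratio only just passed 2-fold and rests on values near the floor. With the pseudocount of 1 RPKM, neither clec-172 nor clec-60 could be 2-fold lower in normoxia, as their control values there were too low. Both reached the mean of 1 RPKM only through control hypoxia, so their place in this set was partly fixed in advance. clec-225 was at 2.12, 5.37, 1.73 and 0.804 RPKM. clec-86, on chromosome X, was at 2.94, 2.48, 1.02 and 0.186 RPKM, so both were lowest in elt-2-labelled hypoxia.

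Fewer lectin genes were higher than lower with the elt-2 label. At least 2-fold higher were 6 (9.68%) in normoxia and 3 (4.84%) in hypoxia, beside 1.23% and 1.94% of all compared genes. clec-4 (chromosome II, 12578353 to 12581003), which is known from work on infection, was at 3.7, 6.23, 34.6 and 12.4 RPKM. Its elt-2-labelled values were the 2 highest, with log2 ratios over control of 2.92 in normoxia and 0.89 in hypoxia. clec-54 was at 8.25, 9.83, 20.4 and 16.7 RPKM, again with both elt-2-labelled libraries on top. At low levels the same order held for clec-72, at 0.655, 0.748, 4.78 and 3.12 RPKM, and for clec-233, at 0.0859, 0.0173, 2.85 and 1.61 RPKM. These last 2 genes were at least 2-fold higher at both oxygen levels, 3.23% of the compared lectin genes beside 0.507% of all compared genes. Both were under 1 RPKM in each control library and were compared only through the elt-2-labelled libraries. Their direction was thus partly set by the filter. clec-232 was at 0.563, 0.104, 3.39 and 0.623 RPKM and was past 2-fold in normoxia alone.

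clec-221 (chromosome V, 10953482 to 10954415) was high in 1 library. It was at 0.657, 0.495 and 1.03 RPKM in the first 3 libraries and at 36.2 RPKM in elt-2-labelled hypoxia. Its log2 ratios that involve that library were 4.19 for hypoxia in elt-2-labelled animals and 4.64 for the elt-2 label in hypoxia, and both rest on that library.

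Turning to oxygen, 6 genes were past 2-fold on the high side in hypoxia on both foods, 9.68% of the compared lectin genes beside 5.86% of all compared genes. clec-62 (chromosome II, 12893029 to 12895029) was at 54.9 and 155 RPKM in control normoxia and hypoxia and at 79.7 and 206 RPKM in the elt-2-labelled pair. clec-83 (chromosome IV, 2839391 to 2841432) was at 81.2 and 172.1 RPKM and, in the elt-2-labelled pair, at 137 and 289.8 RPKM. Both hypoxia values were above both normoxia values for each gene, and the elt-2-labelled value was the higher one at each oxygen level. clec-196 was at 4.67 and 24.5 RPKM in control and at 4.44 and 24.5 RPKM in elt-2-labelled animals. The adjacent genes clec-222 and clec-223 were at 114 and 4.5 RPKM in control normoxia, 232 and 12.6 in control hypoxia, 91.6 and 3.88 in elt-2-labelled normoxia and 221.5 and 12.4 in elt-2-labelled hypoxia. For clec-196, clec-222 and clec-223 the values on the 2 foods lay close together at each oxygen level. clec-63, described above, is the sixth of these genes, and clec-65, at 308, 514, 259 and 578 RPKM, was past 2-fold in elt-2-labelled animals and at a log2 ratio of 0.74 in control. Tissue marker lists differed in direction with hypoxia. Of 11 intestine markers, 6 were at least 2-fold higher and 2 lower in control (median 1.20), and 5 were higher and 0 lower in elt-2-labelled animals (median 0.99). Of 9 body wall muscle markers, 3 and 4 were at least 2-fold higher and 0 lower (medians 0.94 and 0.84). Medians in control and elt-2-labelled animals were 0.47 and 0.38 for 5 epidermis markers and 0.14 and 0.31 for 7 neuron markers. They were negative for 10 oocyte and germline (-0.56 and -0.45), 3 sperm (-1.61 and -0.93) and 2 pharynx markers (-1.52 and -0.57). The part of these tissues in the lectin values was not tested.

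The other 11 genes at least 2-fold higher in control hypoxia (17.7%) were not so in elt-2-labelled hypoxia, beside 3.62% of all compared genes. They include clec-47, clec-52, clec-57, clec-5, clec-10, clec-172, clec-60, clec-66 and clec-225, whose values are above. Of these, clec-5, clec-10, clec-172 and clec-60 reached the mean of 1 RPKM only through control hypoxia, so their direction was partly set by the filter. clec-47 had a hypoxia ratio of 4.21 on the log2 scale in control and of 0.50 in elt-2-labelled animals. Its control ratio was the highest of the 62 with the pseudocount of 1 RPKM, but with 0.1 RPKM those of clec-60 (5.21) and clec-172 (4.72) were above that of clec-47 (4.58). For clec-172 the pair was 3.01 and 0.00, for clec-52 it was 2.90 and 0.69, for clec-5 it was 2.50 and -0.03, and for clec-60 it was 2.50 and -0.20. clec-205 was at 3.82, 11.8, 3.22 and 5.69 RPKM, with ratios of 1.41 and 0.67, and clec-170 was at 1.54, 4.61, 3.53 and 2.1 RPKM. A pseudocount of 1 RPKM compresses the elt-2-labelled ratio of genes near 0, and with 0.1 RPKM the ratio of clec-52 there was 2.38, past 2-fold.

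The difference between the hypoxia ratios of the 2 foods, which uses all 4 libraries, was -1 or lower for 18 of the 62 genes (29.0%), beside 3.15% of all compared genes. A pseudocount of 1 RPKM compresses ratios of genes near 0, so this count depends on that choice. Of the 18, clec-52 was at 0.0536 and 0.701 RPKM, clec-57 at 0.0601 and 0.212 and clec-172 at 0 in the elt-2-labelled libraries. No count with another pseudocount is given. The difference was 1 or higher for 2 genes, clec-221 and clec-209 (3.23%), beside 1.99%. The median difference was -0.54 over the 62 genes and 0.02 over all compared genes. The hypoxia ratios had opposite signs on the 2 foods, each of at least 0.5 and 1 of them past 2-fold, for 5 of the 62 genes (8.06%), beside 0.441% of all compared genes. By the same rule the ratios for the elt-2 label had opposite signs at the 2 oxygen levels for clec-60 alone (1.61%), beside 0.394%. The interaction of oxygen and food has no test with 1 library per group.

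**Figure D4:**
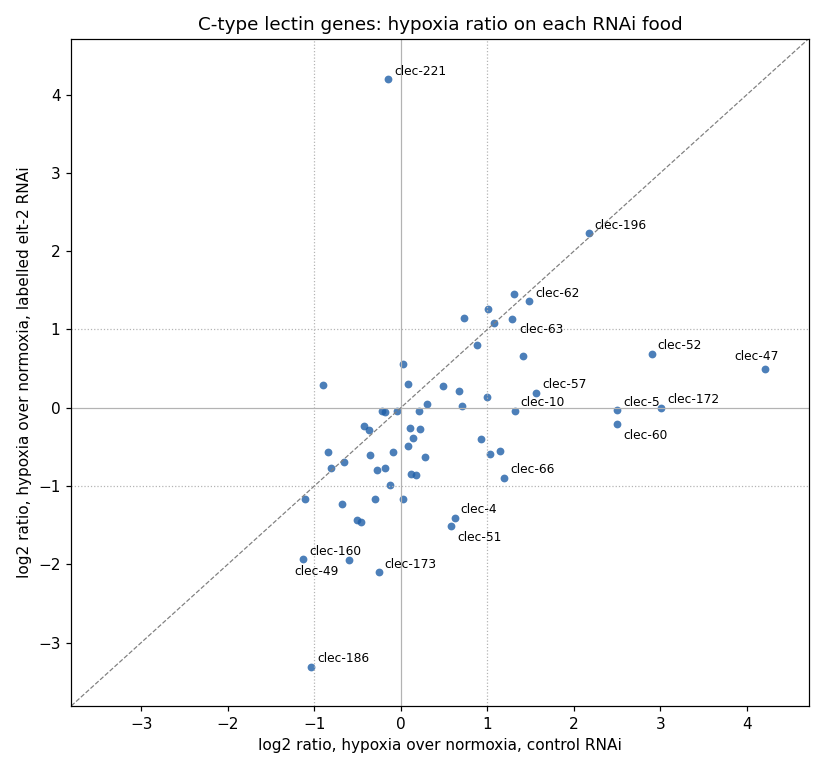
Log2 ratio of hypoxia over normoxia in control animals (x axis) and in elt-2-labelled animals (y axis), 1 point per compared C-type lectin gene, with dotted lines at 2-fold and a dashed line of equal ratios. Genes such as clec-47, clec-172 and clec-5 lie far to the right and near 0 on the y axis, while clec-196, clec-62 and clec-63 lie near the dashed line.

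Lower in hypoxia on both foods past 2-fold were clec-186, clec-160 and clec-74, 4.84% of the compared lectin genes beside 2.30% of all compared genes. clec-160 was at 6.37, 2.37, 5.71 and 0.753 RPKM and clec-74 at 1.59, 0.205, 1.99 and 0.341 RPKM. In elt-2-labelled animals alone, 9 more genes (14.5%) were at least 2-fold lower in hypoxia, beside 1.95% of all compared genes. They include clec-173, clec-49, clec-51, clec-218, clec-265 and clec-4, whose values are above, and clec-146, at 14.1, 8.45, 16.1 and 6.28 RPKM. clec-186 had the lowest ratio, -3.31 on the log2 scale, against -1.04 in control.

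The abundant genes clec-88 and clec-91 were lower in hypoxia by less than 2-fold on both foods and lay close together between foods. clec-88 (chromosome II, 6365706 to 6366807) was at 885, 563, 918 and 567 RPKM. clec-91 (chromosome I, 9126132 to 9127065) was at 599, 343, 576 and 337 RPKM. Both normoxia values were above both hypoxia values for each gene. Beside this, the 10 oocyte and germline markers had summed levels of 7399, 4895, 8384 and 5996 RPKM, none at 0 in any library, and median hypoxia log2 ratios of -0.56 in control and -0.45 in elt-2-labelled animals with none of 10 past 2-fold. Their part in the values of clec-88 and clec-91 was not tested.

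An average effect was fitted with limma across all 10655 compared genes on log2(RPKM + 1), with oxygen and RNAi as additive terms. Its 1 residual degree of freedom is the interaction, so it favours genes that moved alike in both pairs, and a difference between foods counts as error. For oxygen it called 14 of the 62 lectin genes at an adjusted p of 0.05, 9 that rose and 5 that fell with hypoxia. Over all compared genes it called 17.2% higher and 15.7% lower, so the share among lectin genes is no larger than the background. clec-62 rose by 1.42 ± 0.07 on the log2 scale (SE, 4 libraries; limma adjusted p = 0.0143), and clec-196 by 2.20 ± 0.13 (adjusted p = 0.0143). clec-83, clec-63, clec-222, clec-223, clec-65, clec-97 and clec-205 rose as well. clec-91 fell by 0.79 (SE 0.07, limma adjusted p = 0.015), and clec-88, clec-160, clec-146 and clec-74 also fell.

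For the elt-2 label the same fit called 7 of the 62 genes, 6 that fell and 1 that rose, beside 0.976% and 0.131% of all compared genes. clec-85 had an average log2 effect of -5.43 ± 0.08 (SE, 4 libraries; limma adjusted p = 0.00838) and clec-67 one of -4.91 ± 0.17 (adjusted p = 0.0214). clec-209 had -4.21 ± 0.31 (limma adjusted p = 0.0379) and clec-63 had -1.12 ± 0.08 (limma adjusted p = 0.0362). clec-41 and clec-53 fell as well. As given above, clec-67 and clec-53 were compared only through the control libraries, and the level of clec-209 is uncertain. The gene that rose was clec-83, by 0.75 ± 0.06 (limma adjusted p = 0.0422). None of these 7 calls held when limma was run without its mean-variance trend, where 0 of all compared genes were called for the elt-2 label, against 118 with the trend, and 25 lectin genes were at an unadjusted p under 0.05. For clec-85 and clec-67 the limma adjusted p without the trend was 0.0723. Whether the 4 libraries stem from separately grown populations is not stated. With 1 library per group, the limma SE and p-values rest on the interaction of oxygen and food, pooled across genes. They do not measure a spread between replicates, technical or biological.

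Of the 12 groups of neighbours with 2 or more compared genes, 9 held genes whose log2 ratios for the elt-2 label in normoxia lay 1 or more apart, 8 did so in hypoxia, and for the hypoxia ratios 4 did so in control and 6 in elt-2-labelled animals. In the group on chromosome II from 12893029 to 12906535, clec-62 and clec-65 differed by less than 2-fold between foods, clec-63 was about 2-fold lower with the elt-2 label at both oxygen levels, and clec-66 was lower in hypoxia alone. In the group on chromosome IV from 2835662 to 2855454, clec-83 was higher and clec-85 lower with the elt-2 label, with log2 ratios in normoxia of 0.74 and -5.49. On the same chromosome from 3922159 to 3975707, in one of the largest groups with 13 genes, clec-67 was high in the control libraries and clec-72 in the elt-2-labelled ones. The pair clec-49 and clec-50 on chromosome V had log2 ratios for the elt-2 label in normoxia of -0.07 and -1.70, and the pair clec-51 and clec-52 on chromosome IV had 0.41 and -2.14. On chromosome V from 14469202 to 14482180, clec-57 was lower with the elt-2 label, at -3.02, and clec-54 higher, at 1.21. In 3 groups no comparison reached such a gap, the pairs clec-222 and clec-223, clec-145 and clec-146, and clec-204 and clec-205. The locus that names clec-80 and clec-81 together lies beside clec-82 and was outside the naming rule, and it was at 2.25, 15.5, 0.205 and 0.689 RPKM, high in control hypoxia alone.

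**Figure D5:**
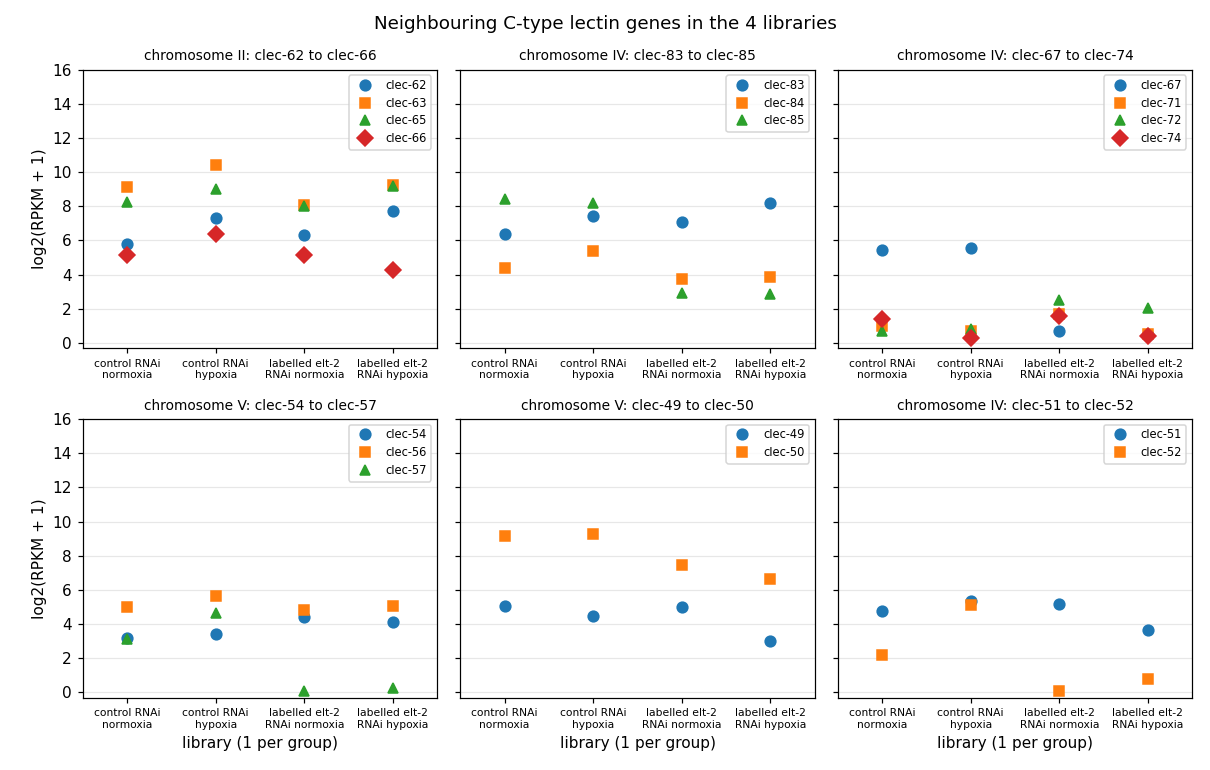
Level of neighbouring C-type lectin genes, as log2(RPKM + 1), in the 4 libraries, with 1 panel per genomic group and 1 marker per gene. In the panel of clec-83 to clec-85, clec-85 is high in both control libraries and low in both elt-2-labelled ones, while clec-83 is highest in elt-2-labelled hypoxia.

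Of the 193 genes below the mean of 1 RPKM, 130 were detected in at least 1 library and 14 reached 1 RPKM in one. clec-27 and clec-35, which lie in 1 group of neighbours on chromosome V from 16839123 to 16869808, were highest in elt-2-labelled hypoxia, at 2.83 and 1.43 RPKM, and at most 0.333 RPKM elsewhere. clec-31 and clec-36 of the same group were highest in control hypoxia instead, at 1.86 and 1.87 RPKM. clec-3 was at 1.44 and 0.587 RPKM in the control libraries and at 0 in both elt-2-labelled ones. The low values carry few reads, and how many is unknown.

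The authors' deposited tables test 1 library against 1 library and so compare libraries and not conditions. For the elt-2 label in hypoxia, the authors' deposited table called 13 of the 89 lectin genes tested, all lower. Of the 13, 10 were among the 62 compared genes. Among the 13, clec-10, clec-172, clec-3, clec-70 and clec-210 were listed at 0 in elt-2-labelled hypoxia. The authors' calls covered 0.921% of the loci they tested in that table. For the elt-2 label in normoxia the authors' deposited table called 7 of the 87 lectin genes tested, 6 of them lower and clec-4 higher. There, 0.531% of tested loci were called. clec-85, clec-67, clec-209, clec-41, clec-50 and clec-3 were called at both oxygen levels in the authors' deposited tables. For hypoxia, the authors' deposited tables called clec-70 in control, which was at 0.563 RPKM in hypoxia and 0 in normoxia, and clec-186 and clec-73 in elt-2-labelled animals, where 0.467% and 0.712% of tested loci were called.

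Of 12 lectin genes known from infection work, 9 were compared. In elt-2-labelled hypoxia 7 of the 9 were at least 2-fold lower than in control, all but clec-4 and clec-71, beside 41.9% of the 62 lectin genes and 5.08% of all compared genes. In normoxia 4 of the 9 were lower, beside 25.8% and 3.66%, and clec-4 and clec-60 were higher, beside 9.68% and 1.23%. In control animals clec-52 and clec-60 had hypoxia ratios past 2-fold on the high side, beside 27.4% and 9.48%, and none was lower. In elt-2-labelled animals none was higher and clec-4, clec-49 and clec-71 were lower, beside 19.4% and 4.25%. Their summed level was 631 and 646 RPKM in the control libraries and 105 and 43.6 RPKM in the elt-2-labelled ones. clec-85 and clec-41 made up most of the control sums.

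Among other secreted effectors, 38 lysozyme and saposin-like genes of the 46 names listed were found. Of 24 compared, 11 were at least 2-fold lower with the elt-2 label in normoxia and 16 in hypoxia, with medians of -0.89 and -1.91. Beside these stand 3.66% and 5.08% of all compared genes, and 25.8% and 41.9% of the compared lectin genes. The 1 gene higher was spp-9, in normoxia, at 0.506 RPKM in control and 13.4 RPKM under the label. With hypoxia, 7 were at least 2-fold higher and 0 lower in control, and 3 were higher and 3 lower in elt-2-labelled animals. Over all compared genes, 9.48% were higher and 3.55% lower in control, and 9.87% higher and 4.25% lower in elt-2-labelled animals. The same shares stand beside the galectin counts below. The lysozyme lys-4 was at 29, 155, 1.35 and 1.63 RPKM and the saposin-like spp-1 at 45.2, 68.7, 1.23 and 0.927. Galectins bind galactose-containing sugars with another protein fold. Of 11 compared, 4 were at least 2-fold higher in hypoxia in control and 5 in elt-2-labelled animals, and none was lower. With the elt-2 label 2 were at least 2-fold lower in normoxia, and in hypoxia lec-9 was lower and lec-11 higher, the latter at 46.0 RPKM in control and 95.1 RPKM under the label. lec-8 was at 262, 1131, 211 and 1026 RPKM, with both hypoxia libraries on top, and lec-9 was at 325 RPKM in control hypoxia and at 26.9 and 23.3 RPKM in the elt-2-labelled libraries, with both control libraries on top.

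Of 16 regulators of intestinal immunity compared, none was at least 2-fold lower with the label at either oxygen level, and elt-2 itself was the one past 2-fold, higher in normoxia. The p38 kinase gene pmk-1 was at 22, 17, 18.1 and 16.7 RPKM, its upstream kinase sek-1 at 13.2, 15.8, 13.6 and 15.2 RPKM and the transcription factor gene atf-7 at 121, 116, 125 and 100.3 RPKM. In control hypoxia elt-2, the second GATA factor gene elt-7 and the receptor gene fshr-1 were at least 2-fold higher, with log2 ratios of 1.48, 1.42 and 1.06. In elt-2-labelled hypoxia fshr-1 and the phosphatase gene vhp-1 were, with 1.13 and 1.52. All 12 intestine markers were found and none was at 0 in any library. Of the 11 compared, 3 were at least 2-fold lower with the elt-2 label in normoxia, and 2 were lower and 2 higher in hypoxia, with medians of -0.77 and 0.19. Their summed levels were 8567, 4479, 4398 and 4481 RPKM, most of it from the yolk genes vit-3 and vit-4, and their part in the lectin values was not tested.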

How the data were processed

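RNA of 4 libraries was sequenced with paired reads of 100 bp on 1 shared lane, per the labels. The authors deposited RPKM per locus, per the file headers, in 6 tables of 1 library against another, and each library had the same values in every table (0 differed). The deposited p-value and adjusted p-value are from the authors' test, per the file headers. TopHat2 2.0.8b, Cufflinks 2.1.1 and the build ce10 are named in the submitters' processing notes. Annotation, strandedness and read totals: not given in the sources used here. Therefore the depth is unknown and no counting interval is given.

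Ratios were taken for the 10655 single-gene loci that had no failed status in any table and averaged 1 RPKM or more. Ratios are log2 of (RPKM + 1). limma 3.58.1 in R 4.3.3 fitted additive terms with Benjamini-Hochberg adjustment at 0.05. It was also run on simulated data with noise from its own fitted trend, an added hypoxia effect and no added interaction. Such data cannot show how the fit treats an interaction, which is its residual in the real libraries. Python 3.11.15 and pandas 2.3.3 made the counts. Values in all libraries are given for 34 genes that averaged 5 RPKM or more and passed 2-fold in a comparison, or had one of the 5 highest means. Others are named from genomic groups, fixed lists or after their values were seen. Members and lists were chosen with earlier results of these data known. Of the 255 names, 254 matched a current symbol of WBcel235, used for names and gene type only. Of the compared lectin genes 7 overlap another locus, among them clec-51, clec-84 and clec-218, and without strand such reads cannot be told apart.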

Additional observations from a re-analysis of the deposited data

Results flagged for a closer look

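The hypoxia ratio had opposite signs on the 2 foods, by at least 0.5 on the log2 scale each and past 2-fold in at least 1, for 5 of the 62 genes (8.06%), beside 0.441% of all compared genes, and these differences were not tested. In control and elt-2-labelled animals it was 0.62 and -1.41 for clec-4, 1.19 and -0.89 for clec-66, 1.15 and -0.55 for clec-170, 0.58 and -1.51 for clec-51, and 1.03 and -0.60 for clec-225. The ratio for the elt-2 label had opposite signs at the 2 oxygen levels for clec-60, at 1.02 in normoxia and -1.69 in hypoxia, also untested. That is 1.61% of the 62 genes, beside 0.394% of all compared genes. The normoxia ratio of clec-60 rests on a control value near the floor, 0.0335 RPKM. With 1 library per group, each sign rests on 2 libraries.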

How the results depend on the processing

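Of the 4 counts of genes past 2-fold (20, 20, 22 and 29 in the order hypoxia in control, hypoxia in elt-2-labelled animals, elt-2 label in normoxia and elt-2 label in hypoxia), none left a range of 1.5 times with a pseudocount of 0.1 RPKM, no filter, centring on the median gene or the status OK only. A pseudocount of 5 RPKM gave 10, 12 and 12 for the first 3 (10 higher and 0 lower, 7 and 5, and 1 and 11), and a mean of at least 5 RPKM gave 13 for hypoxia in control, by construction of fewer genes. limma's 14 calls for oxygen ranged from 11 to 16 under every alternative but the last one below. Its 7 calls for the elt-2 label were 2 with a pseudocount of 5 RPKM, 2 with no filter on low values and 0 without the mean-variance trend (25 at an unadjusted p under 0.05). With no filter, loci at 0 in all libraries were left out of the fit, and keeping them, an alternative chosen after seeing the data, gave 0 limma calls for both effects (30 and 34 lectin genes at an unadjusted p under 0.05). The causes were not tested. For the 34 genes given in full, none of 1348 single values was recorded as reversed, 8 passed the threshold and 50 no longer did. For limma values a change of sign was recorded only for genes called in the main fit. Sign changes of uncalled limma values were therefore not counted. No paired analysis was possible because each group has 1 library, and none could be left out. Depth is unknown, so low genes carry unknown counting error.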
